A study of Mus musculus with 32 samples.

Results

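Livers of untreated mice on a methionine and choline deficient (MCD) diet were compared 2 weeks after partial hepatectomy (PH) with livers of such mice before PH. The comparison held 8 of the 32 arrays of the study, 4 for each time, taken by their titles and not by any measured value. All mice were male C57/BL6. The MCD mice before PH had eaten the diet for 3 weeks. Those after PH had been on it for 3 weeks when 70% of the liver was removed and then stayed on it for 2 weeks, so that PH and the longer diet (5 weeks in all) cannot be told apart. Mice on standard chow without drug (C), with 4 arrays before PH and 4 arrays 2 weeks after it, gave the reference for diet. MCD mice given a GLP-1 receptor agonist before and after PH (M+Fc-GLP-1, 4 arrays at each time) gave the reference for treatment; the sample labels name this drug Fc-GLP-1, and the growth protocol in the labels names an agonist that acts on both the glucagon and the GLP-1 receptor. The livers after PH came from mice that survived the operation, and the study describes the livers before PH of its drug-treated groups as tissue taken out at the operation from mice of the same group, without saying which arrays share a mouse.

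After PH the remaining liver lobes enlarge, hepatocytes leave quiescence, replicate their DNA and divide, and the mass of the organ is restored while it goes on making plasma proteins. Interleukin 6 and other cytokines prime this response and also switch on the hepatocyte acute phase proteins, and Kupffer cells, the resident macrophages of the sinusoids, are a main source of these cytokines. The MCD diet blocks the synthesis of phosphatidylcholine and the export of lipoproteins, so that the liver fills with fat and becomes inflamed.

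RNA was labelled with Cy3 and hybridized to 1-colour Agilent arrays. A level is given below as the log2 signal of a gene's probe minus the log2 of the 75th percentile of its array, so that 1 unit is a doubling and levels of different genes are not compared. The 75th percentile lay between 442.4 and 563.6 intensity units on the 4 MCD arrays before PH and between 526.7 and 692.5 after PH, and from 52.5% to 57.9% and from 44.3% to 57% of probes were well above background. The MCD arrays before PH shared a slide, a scanner and a scan day with those of C before PH, and the MCD arrays after PH lay on a slide of their own, read on the other scanner on the other day together with C after PH. Slide, scanner and scan day therefore cannot be told apart from time in MCD liver. The control spots (+)E1A_r60_1 and (+)E1A_r60_3 had mean log2 signals of 14.03 and 12.81 before PH and of 16.75 and 3.27 after PH in MCD, and of 17.13 and 3.24 in C after PH, while the other 5 groups lay with MCD before PH. Some arrays stood apart from their group: MCD before PH replicate 2 in neutrophil and Kupffer cell genes, MCD before PH replicate 4 in mitosis genes, and C after PH replicate 1 in male-biased, pericentral and macrophage genes. Many of the results that rest on them are given with and without them, and the others only with all arrays.

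Of 21289 genes tested, 1987 (9.33%) differed between MCD liver after and before PH at an adjusted p under 0.05 (limma, Benjamini-Hochberg over all genes tested). Of these, 1309 (6.15% of the genes tested) were higher after PH and 678 (3.18%) were lower. At least 4-fold changes were found in 133 of the higher and 108 of the lower genes. In 1764 of the 1987 genes (8.29% of those tested) the values of the 4 arrays before PH did not overlap those of the 4 arrays after it. The share of rises depended on the centring: it was 65.9% here, 51.3% (905 higher and 858 lower) when arrays were centred on their median, and 99.2% (8674 higher and 70 lower) in the values that the authors normalized separately for each time, where the median of all genes was itself 0.53 higher after PH. The median change of all genes was -0.03 on the log2 scale in the values used here, and the medians of gene lists are given beside it. Features without a gene symbol were called more often (783 of 5539, 14.1%) than those with one (1204 of 15750, 7.64%). The lists described below held 902 genes, of which 823 were tested, 48 were higher and 38 were lower after PH.

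The arrays held the expression of a liver at both times. All 12 hepatocyte genes on the list, among them albumin (*Alb*), transthyretin (*Ttr*) and *Hnf4a*, were measured, and 0 of 12 passed the test (0 also at an unadjusted p under 0.05, limma), with a median change of 0.04. *Alb*, the main plasma protein, had levels of 9.80, 10.02, 9.80 and 10.11 before PH and 9.91, 10.07, 9.81 and 10.23 after PH. The 2 ranges overlapped, and the difference was 0.07 ± 0.27 (SE, adjusted p = 0.904).

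The 20 genes with the largest changes came from several cell types. They were chosen among called genes whose values did not overlap between the times. The separation given below for each of them therefore follows from the choice. Among the 10 largest rises were granule and inflammation genes of myeloid cells (*Prtn3*, *S100a8*, *Chil3*), the chemokine gene *Cxcl13* and the acute phase gene *Orm3*. *Igdcc4*, which codes for a cell surface protein of the immunoglobulin superfamily and lies on chromosome 9 (chr9:65101023-65137947, GRCm38.p6), had levels of -4.48, -5.04, -4.06 and -5.43 before PH and -0.26, 0.95, 1.63 and 1.71 after PH. All 4 arrays after PH lay above all 4 before PH, and the change was 5.76 ± 0.71 (SE, adjusted p = 1.27e-05). *Prtn3*, the serine protease proteinase 3 of neutrophil granules, had levels of -3.38, -4.37, -3.82 and -3.69 before PH and 0.99, 0.45, 1.41 and 1.25 after PH. Here too the groups were far apart, with a change of 4.84 ± 0.71 (SE, adjusted p = 9.24e-05).

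*Cxcl13*, which codes for the chemokine that draws B cells and lies on chromosome 5 (chr5:95956939-95961068), had levels of -1.66, -3.77, -1.03 and -1.73 before PH and 1.73, 2.68, 3.11 and 2.61 after PH. The lowest value after PH was above the highest before it, and the change was 4.58 ± 0.71 (SE, adjusted p = 0.000176). In C liver *Cxcl13* changed by 1.00 ± 0.71 (adjusted p = 0.356), so that the MCD change was 3.58 larger (adjusted p = 0.0485). *Tmc5*, of the transmembrane channel-like family, rose by 4.35 ± 0.73 (SE, adjusted p = 0.000378), and *Rnf138rt1*, a retrotransposed copy of *Rnf138* whose probe may share signal with the parent gene, rose by 4.41 ± 0.89 (SE, adjusted p = 0.00213). *Dmkn*, which codes for the epithelial protein dermokine, was not well above background on any MCD array before PH and was so on all 4 after it, at least 5.74-fold higher (adjusted p = 0.00135). *Dpp6*, an auxiliary subunit of potassium channels, had levels of -2.96, -3.06, -2.57 and -2.85 before PH and -1.57, 6.26, -1.14 and -0.87 after PH. Its rise of 3.53 ± 0.94 (SE, adjusted p = 0.0166) rested in size on replicate 2 after PH, and the call was lost when only the 2 MCD groups were fitted (adjusted p = 0.142).

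*Hsd3b5*, a 3-ketosteroid reductase that male liver makes in large amount, had levels of 0.26, 1.54, 1.49 and 2.19 before PH and -2.42, -2.42, -2.75 and -2.43 after PH. *Slco1a1*, a male-biased organic anion transporter, had levels of 0.04, 0.57, 0.71 and 0.38 before PH and -3.77, -2.92, -3.88 and -2.96 after PH. Both sets of values separated the 2 times, as the choice of genes required. The changes were -3.87 ± 1.18 (SE, adjusted p = 0.0354) and -3.81 ± 1.18 (SE, adjusted p = 0.0391), and both calls were lost when single arrays were left out (adjusted p up to 0.0921 and 0.0878). *Gadd45a*, a stress-induced growth arrest gene and p53 target, had levels of 3.11, 2.23, 3.11 and 2.21 before PH and -0.03, 0.90, -0.78 and -1.03 after PH. All values after PH were below all values before it, and it fell by 2.90 ± 0.55 (SE, adjusted p = 0.00127). *Krt23*, a type I keratin, fell by 3.86 ± 0.78 (SE, adjusted p = 0.00216), and *Slc26a4*, the anion exchanger pendrin, fell by 3.80 ± 0.71 (SE, adjusted p = 0.00101).

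*N6amt1*, the methyltransferase that modifies a translation termination factor (chr16:87354185-87368649), had levels of 0.47, 0.59, 1.01 and 0.86 before PH and -2.78, -2.82, -2.75 and -2.75 after PH. The 4 arrays after PH lay between -2.82 and -2.75, and the change of -3.51 ± 0.26 (SE, adjusted p = 9.51e-10) had the smallest p of the 20. In C liver, scanned with MCD after PH on the second day, it changed by -1.77 ± 0.26 (adjusted p = 0.000107), and in M+Fc-GLP-1, scanned on the first scanner at both times, by -0.21 ± 0.26. The part of the scanner in this difference was not tested. Of the remaining large falls, *Kifc1*, a kinesin of the mitotic spindle, was at least 3.21-fold lower after PH, *Gm8995* at least 3.16-fold and *Scube3* at least 2.22-fold, since none of these probes was well above background on any MCD array after PH. The calls of *Gm8995*, *Scube3* and *Clec2h* were lost after normexp correction with quantile normalization (adjusted p = 0.0601, 0.182 and 0.0988).

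**Figure D1:**
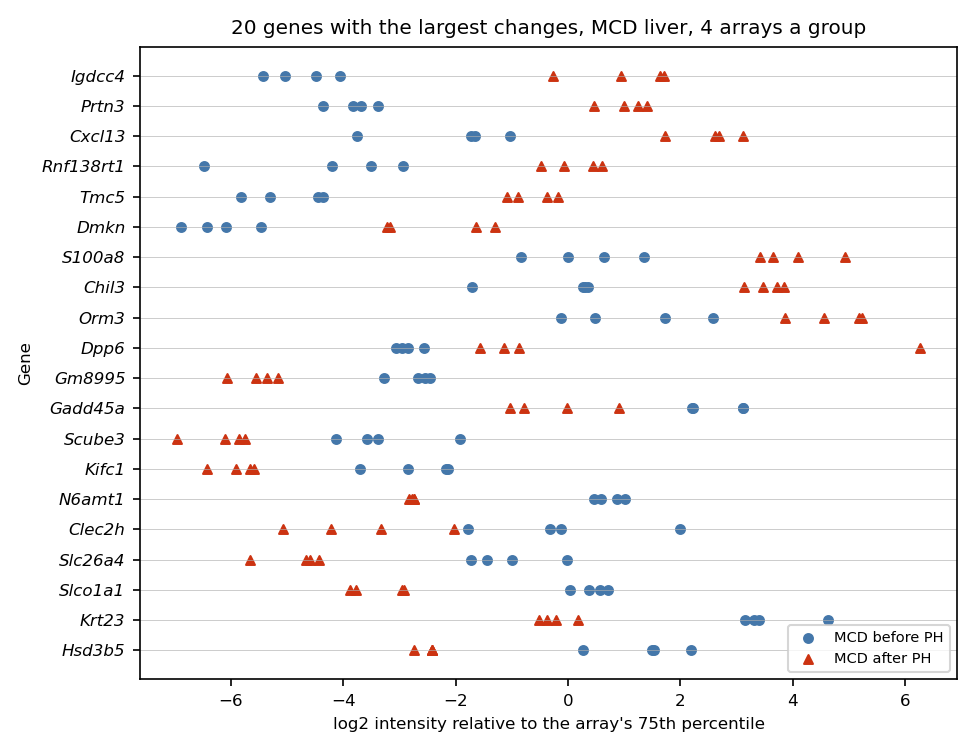
Log2 level, relative to the 75th percentile of the array, of the 10 genes that rose most and the 10 that fell most in MCD liver, with 1 point for each of the 4 arrays before PH (circles) and the 4 after PH (triangles). The groups do not overlap for any of the 20 genes, which the rule for choosing them required, and *Dpp6* has 1 array at 6.26 far above the other 3.

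Most of the neutrophil markers tested rose. Neutrophils carry antimicrobial granule proteins and the calcium-binding alarmins S100a8 and S100a9, and they are short-lived cells that enter an injured liver from the blood. Of 17 markers tested of 18 listed, 11 were higher after PH, 0 were lower and 6 did not pass the test, against 6.15% of all genes called higher. All 17 estimates were above 0, with a median of 2.61 beside -0.03 for all genes, and in bulk liver more cells of a type and more RNA per cell cannot be told apart. The values of 7 of the 11 did not overlap between the times, and nor did those of 1764 of all 1987 called genes.

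*S100a8*, 1 subunit of the alarmin calprotectin, had levels of 0.63, -0.84, -0.01 and 1.35 before PH and 3.65, 3.41, 4.10 and 4.94 after PH. The 2 groups were well apart, and the change was 3.74 ± 0.67 (SE, adjusted p = 0.000731). *S100a9*, its partner subunit, had levels of 3.83, 1.66, 3.68 and 4.18 before PH and 5.15, 6.55, 6.35 and 6.72 after PH. Its values did not overlap either, and it rose by 2.85 ± 0.61 (SE, adjusted p = 0.00335). The lowest value of *S100a9* before PH, and that of *Chil3*, *Ltf*, *Ngp*, *Camp* and *Mmp8*, came from the same array, replicate 2. The mean of the 17 markers on that array was -1.28 relative to the group mean, against 0.37, 0.49 and 0.42 on the other 3 arrays before PH and 1.66, 2.23, 2.51 and 2.78 after PH. Without that array 6 of the 17 markers were higher, and the range after PH was still above every array before it.

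Among the granule genes, *Ltf* (lactoferrin) had levels of -1.34, -4.92, -2.26 and -3.06 before PH and -1.56, 1.60, 1.94 and 2.89 after PH. It rose by 4.12 ± 1.01 (SE, adjusted p = 0.00905), although replicate 1 after PH (-1.56) fell among the values before PH. *Ngp* (neutrophilic granule protein) and *Camp* (cathelicidin) showed the same low replicate 1 after PH and rose by 3.55 ± 0.98 (SE, adjusted p = 0.0205) and 3.53 ± 0.90 (SE, adjusted p = 0.0126). *Mmp8* (neutrophil collagenase) rose by 2.61 ± 0.70 (SE, adjusted p = 0.0168) and *Elane* (neutrophil elastase) by 1.19 ± 0.32 (SE, adjusted p = 0.0184). *Mpo* (myeloperoxidase), at 3.32 ± 1.09 (SE, adjusted p = 0.0517), did not pass the test. The secreted proteins *Chil3* and *Retnlg* rose by 3.73 ± 0.88 (SE, adjusted p = 0.00667) and 3.12 ± 0.63 (SE, adjusted p = 0.00199), the protease inhibitor *Stfa2* by 2.19 ± 0.47 (SE, adjusted p = 0.00377), and the chemoattractant receptor *Fpr2* by 2.04 ± 0.56 (SE, adjusted p = 0.0191). The surface and receptor genes that did not pass the test had small estimates: 0.14 ± 0.29 for *Ly6g*, 0.36 ± 0.25 for *Csf3r*, 0.88 ± 0.43 for *Fpr1* and 0.93 ± 0.64 for *Cxcr2*.

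In C liver, with C after PH replicate 1 included, 7 of the 17 markers were higher after PH, against 6.03% of all genes called higher there, with a median of 1.14. The MCD and C changes did not differ at the threshold for any of the 17. In M+Fc-GLP-1 liver 2 of the 17 were higher (0.813% of all genes), *S100a8* and *S100a9*, with a median of 1.53.

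Hepatocytes secrete the acute phase proteins into plasma during inflammation. Of 21 of their genes tested, 10 were higher after PH (6.15% of all genes were) and 0 lower, with a median change of 1.13. The values of all 10 were separate between the times, as were those of 1764 of all 1987 called genes. *Orm3*, an orosomucoid, had levels of 2.58, -0.12, 1.73 and 0.48 before PH and 5.18, 5.22, 3.86 and 4.56 after PH. It rose by 3.54 ± 0.81 (SE, adjusted p = 0.00568). The serum amyloid A gene *Saa2* had levels of 5.18, 3.35, 4.28 and 4.96 before PH and 8.08, 8.09, 6.72 and 6.42 after PH. The group after PH began above the highest value before PH, and the change was 2.88 ± 0.70 (SE, adjusted p = 0.00852). *Saa1* rose by 2.50 ± 0.63 (SE, adjusted p = 0.0113) and *Saa3*, which macrophages also make, by 1.86 ± 0.46 (SE, adjusted p = 0.00981). *Lbp*, the lipopolysaccharide-binding protein, rose by 1.91 ± 0.40 (SE, adjusted p = 0.00286), *Orm2* and *Orm1* by 1.48 ± 0.38 (SE, adjusted p = 0.0137) and 1.33 ± 0.35 (SE, adjusted p = 0.0156), and *Serpina3n*, a serine protease inhibitor, by 1.26 ± 0.41 (SE, adjusted p = 0.0486). The copper oxidase ceruloplasmin (*Cp*) rose by 1.13 ± 0.22 (SE, adjusted p = 0.00135). The serum amyloid A genes and the orosomucoid genes are families of similar sequence, and how far their probes share signal was not tested.

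*Fga*, the fibrinogen alpha chain, had levels of 6.70, 5.49, 6.13 and 5.87 before PH and 7.37, 7.55, 7.72 and 7.40 after PH. The 4 values after PH lay above the 4 before it, and it rose by 1.46 ± 0.34 (SE, adjusted p = 0.00623). It was the 1 gene of the list whose MCD change differed from the C change, by 1.86 (adjusted p = 0.0343), since C liver changed by -0.40 ± 0.34 (adjusted p = 0.453). The other fibrinogen chains did not pass the test in MCD, with estimates of 0.18 ± 0.20 for *Fgb* and -0.57 ± 0.43 for *Fgg*, nor did haptoglobin (*Hp*, -0.10 ± 0.22). *Lcn2*, the siderophore-binding protein lipocalin 2, had levels of 8.22, 5.55, 7.66 and 7.24 before PH and 9.69, 9.91, 9.68 and 9.35 after PH. Its values did not overlap, and its difference of 2.49 ± 0.86 (SE, adjusted p = 0.0656) missed the threshold. In C liver, with C after PH replicate 1 included, 6 of the 21 were higher (6.03% of all genes were), with a median of 0.18. The mean of the list on MCD before PH replicate 2 was -0.40 against 0.06 to 0.22 on the other 3 arrays, and without that array 7 of the 21 were higher.

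**Figure D2:**
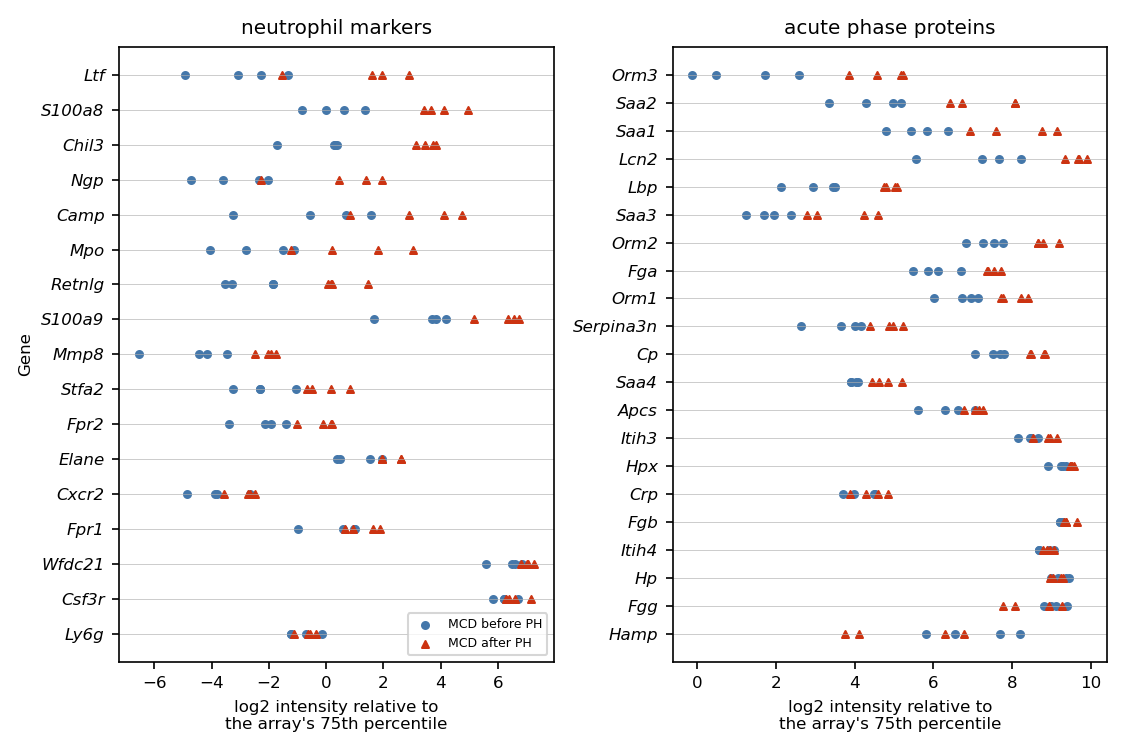
Log2 level, relative to the 75th percentile of the array, of the 17 neutrophil markers (left) and the 21 acute phase genes (right) on the 4 MCD arrays before PH (circles) and the 4 after PH (triangles), each list ordered by its change. The triangles of *S100a8* lie between 3.41 and 4.94 and its circles between -0.84 and 1.35, while the values of *Ly6g* and *Hp* overlap.

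The promoters of rising genes of both lists are shown because many of them held the same short letters. The windows, from RefSeq (GRCm38.p6), ran from 250 bases before to 50 after the start. The letters TTNNGNAA, a loose form of the site of C/EBP factors searched on both strands, stood in the windows of 8 of the 8 rising acute phase genes and 9 of the 11 rising neutrophil genes that had one, and in 44.1% of the windows of all 27025 genes. Over all tested members with a window, rising or not, they stood in 13 of 18 acute phase genes and 11 of 16 neutrophil genes. Below are 190 bases (160 before to 30 after the start) of *S100a8* (chr3:90668911-90669100, plus strand), *Fga* (chr3:83025993-83026182, plus strand) and *Orm2* (chr4:63362289-63362478, plus strand), with each match in capitals.
S100a8: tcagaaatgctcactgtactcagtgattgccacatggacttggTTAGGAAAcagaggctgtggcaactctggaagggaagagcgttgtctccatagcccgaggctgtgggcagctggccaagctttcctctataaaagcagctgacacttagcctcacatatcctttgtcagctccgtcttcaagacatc
Fga: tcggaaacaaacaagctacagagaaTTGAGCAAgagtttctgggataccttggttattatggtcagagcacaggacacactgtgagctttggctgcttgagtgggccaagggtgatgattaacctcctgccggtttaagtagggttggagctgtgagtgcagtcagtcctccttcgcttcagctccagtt
Orm2: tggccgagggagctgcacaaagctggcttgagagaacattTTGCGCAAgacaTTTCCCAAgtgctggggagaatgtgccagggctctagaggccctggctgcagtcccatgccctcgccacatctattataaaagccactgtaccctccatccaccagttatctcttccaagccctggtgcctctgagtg

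None of the mitosis genes tested was called higher after PH in MCD liver. These genes code for the cyclins, kinases, kinesins and chromosome proteins that a cell makes as it divides. Of 24 tested of 31 listed (7 were too dim), 0 were higher and 1, *Kif20a*, was lower, with 23 of 24 estimates below 0 and a median of -1.08. At an unadjusted p under 0.05 in limma 0 were higher and 8 lower. *Kif20a*, a kinesin of cytokinesis, had levels of 0.78, 0.09, 0.28 and -0.95 before PH and -1.62, -1.73, -2.43 and -2.26 after PH. Its values did not overlap, and it fell by 2.06 ± 0.56 (SE, adjusted p = 0.0186). That call was lost under 4 of 19 alternatives (adjusted p up to 0.0884). *Cdc20*, the activator of the anaphase-promoting complex, had levels of 2.80, 3.11, 2.75 and 0.55 before PH and 0.22, 0.98, -0.52 and -0.21 after PH. Replicate 4 before PH (0.55) lay among the values after PH, and the difference of -2.18 ± 0.71 (SE, adjusted p = 0.05) did not pass the test. *Top2a*, the topoisomerase that separates sister chromatids, had levels of -1.54, -1.70, -3.32 and -3.96 before PH and -2.86, -2.81, -2.59 and -2.69 after PH, with overlapping groups and a difference of -0.11 ± 0.59 (SE, adjusted p = 0.941). For *Mki67*, the proliferation antigen Ki-67, the values were 1.64, 1.60, 1.44 and 0.20 before PH and 0.60, 0.60, 0.28 and 0.83 after PH and the difference -0.64 ± 0.57 (SE, adjusted p = 0.538).

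In C liver 20 of the same 24 genes were higher after PH (6.03% of all genes were), with a median of 2.13, and 10 of 24 without C after PH replicate 1, with a median of 1.52. In C, 12 of the 24 were well above background on all 4 arrays before PH and 16 on all 4 after PH. In MCD these counts were 24 and 19. For the other genes the sizes of the changes in C and of the differences by diet rest in part on values near background. The MCD change was below the C change at the threshold for 15 of the 24, against 1.06% of all genes called lower in that contrast, and these were *Birc5*, *Ccnb1*, *Ccnb2*, *Cdc20*, *Cenpe*, *Kif11*, *Kif20a*, *Mad2l1*, *Melk*, *Mki67*, *Pbk*, *Plk1*, *Prc1*, *Top2a* and *Tpx2*. Under the alternatives this count lay between 8 (the authors' normalized values) and 23 (without C after PH replicate 3), and it was 16 without MCD before PH replicate 4, 10 without replicate 2 or replicate 3 of that group and 9 without C after PH replicate 1. The levels showed where the times and diets lay. *Cdc20* was between -1.77 and -0.97 in C before PH, between 0.55 and 3.11 in MCD before PH, between -0.08 and 3.04 in C after PH and between -0.52 and 0.98 in MCD after PH. *Prc1*, a microtubule bundler of the dividing cell, was between -3.75 and -2.89, between -1.19 and 0.72, between -1.93 and 1.79 and between -1.33 and -0.25 in the same order. Before PH, on arrays of the same slide, 22 of the 24 genes were higher in MCD than in C liver (10.9% of all genes were called higher there). After PH 0 of the 24 differed between the diets (12.2% of all genes differed), and 1 did at an unadjusted p under 0.05. The 4 C arrays after PH spread widely. The mean of the 24 genes relative to MCD before PH was 1.26, -0.86, -1.92 and -0.01 on them and -1.04, -0.72, -1.40 and -1.02 on the MCD arrays.

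**Figure D3:**
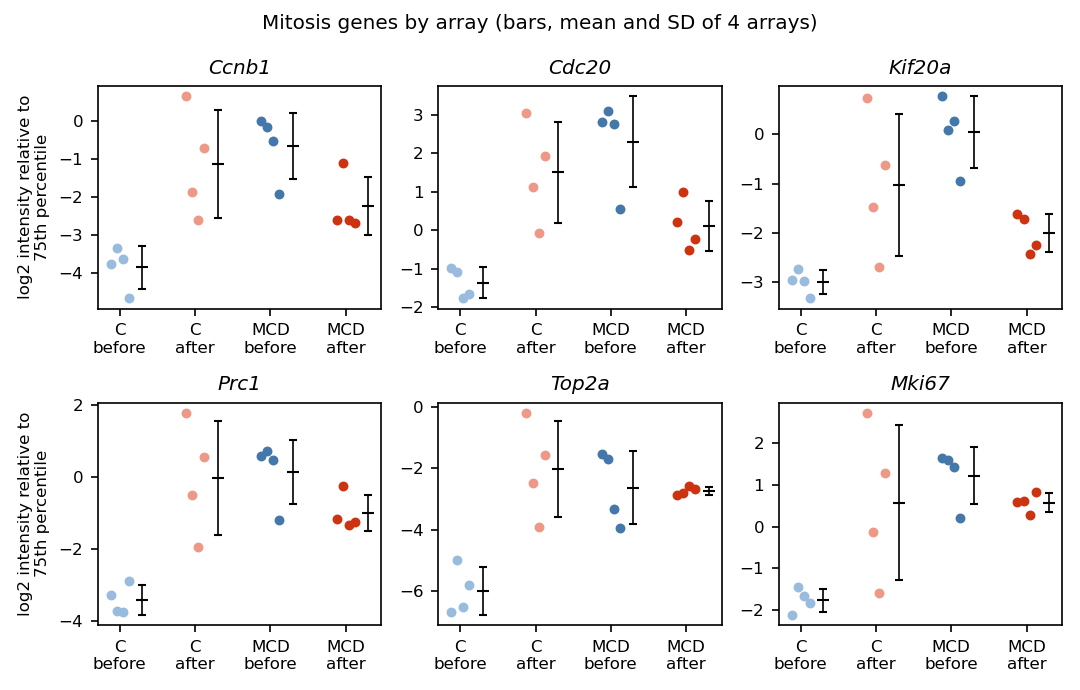
Log2 level, relative to the 75th percentile of the array, of 6 mitosis genes in C and MCD liver before and after PH, with a point for each of 4 arrays and a bar for their mean and SD. For each of the 6 genes the 4 C arrays before PH lie below all 8 MCD arrays. For *Kif20a* the MCD arrays after PH (-2.43 to -1.62) lie below those before PH (-0.95 to 0.78), while for *Top2a* and *Mki67* they overlap.

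The windows of *Cdc20* (chr4:118437314-118437503, minus strand), *Prc1* (chr7:80294291-80294480, plus strand) and *Top2a* (chr11:99024160-99024349, minus strand) are shown because promoters of mitosis genes often pair a CHR element (TTTGAA) with CCAAT boxes. Over the longer windows and both strands, TTTGAA stood in 12 and CCAAT in 15 of the 19 mitosis genes with a window, against 20.2% and 41.1% of all genes. Among the 12 with a window whose change was smaller in MCD than in C, 7 held TTTGAA and 9 held CCAAT. Capitals mark both motifs, also where they are read on the other strand.
Cdc20: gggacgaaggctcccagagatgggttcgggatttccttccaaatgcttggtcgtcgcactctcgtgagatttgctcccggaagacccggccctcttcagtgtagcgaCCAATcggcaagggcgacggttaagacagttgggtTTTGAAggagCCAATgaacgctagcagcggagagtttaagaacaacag
Prc1: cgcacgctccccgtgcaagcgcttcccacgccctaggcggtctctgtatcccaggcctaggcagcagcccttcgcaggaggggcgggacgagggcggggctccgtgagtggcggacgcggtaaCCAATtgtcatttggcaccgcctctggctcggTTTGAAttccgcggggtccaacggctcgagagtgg
Top2a: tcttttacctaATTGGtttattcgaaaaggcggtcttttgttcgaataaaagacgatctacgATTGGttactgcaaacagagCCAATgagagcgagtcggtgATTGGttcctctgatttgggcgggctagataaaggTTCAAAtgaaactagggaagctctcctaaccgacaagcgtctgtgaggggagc

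Genes of DNA replication, which act in the S phase before mitosis, gave 0 higher and 0 lower of 26 tested, also at an unadjusted p under 0.05 (limma), with a median of -0.27. C liver gave 6 higher (6.03% of all genes were), and 1 without C after PH replicate 1. *Cdt1*, which licenses replication origins, and *Gins2*, of the replicative helicase, were the members whose change was smaller in MCD than in C, by -1.59 ± 0.40 (adjusted p = 0.0297) and -1.99 ± 0.56 (adjusted p = 0.0499). Of 22 ligands and receptors of regeneration, 3 were higher and 1 was lower (6.15% and 3.18% of all genes were). The higher were the receptor of hepatocyte growth factor *Met* (0.95 ± 0.24 (SE, adjusted p = 0.0126)), the transcription factor *Stat3* (0.78 ± 0.23 (SE, adjusted p = 0.0268)) and *Wnt9b*, a Wnt ligand of the central vein (1.44 ± 0.35 (SE, adjusted p = 0.00813)). The lower was the growth factor *Egf* (-1.34 ± 0.31 (SE, adjusted p = 0.00568)). *Met* had levels of -0.33, -0.51, -0.43 and -0.56 before PH and 0.37, 0.59, 0.48 and 0.52 after PH. The 4 values after PH lay above the 4 before PH, and the MCD change was 1.24 above the C change (adjusted p = 0.0473). Among 21 CDK inhibitors and p53 targets *Gadd45a* alone was called (9.33% of all genes were). By limma 0 of 16 immediate early genes and 0 of 16 clock genes were called (4 and 1 were lower at an unadjusted p under 0.05).

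**Figure D4:**
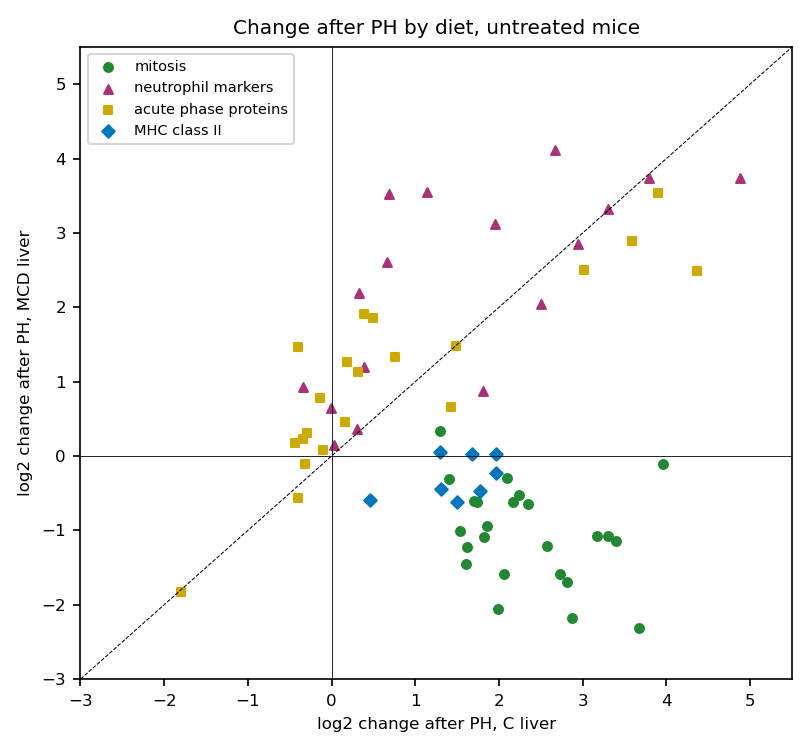
Log2 change after PH in MCD liver against that in C liver for genes of 4 lists, with the dashed line at equal changes. Mitosis genes lie mostly to the right and below 0 on the MCD axis (0 of 24 higher in MCD, 20 of 24 in C), MHC class II genes near 0 on it, and neutrophil and acute phase genes mostly above 0 on it.

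Few macrophage and antigen presentation genes passed the test in MCD liver, where 9.33% of all genes did. Of 11 Kupffer cell markers tested, 1 was higher (6.15% of all genes were), *Marco*, a scavenger receptor, with a median of 0.26. *Marco* had levels of 4.80, 3.85, 4.02 and 5.41 before PH and 7.34, 7.44, 7.29 and 6.44 after PH. All values after PH were above those before PH, and it rose by 2.61 ± 0.55 (SE, adjusted p = 0.003). In C liver 11 of 11 were higher (6.03% of all genes were), with a median of 1.80, and 7 of 11 without C after PH replicate 1, with a median of 1.54. Without MCD before PH replicate 2 *Marco* alone was still called in MCD, and the median of the list was 0.03. The lectin *Clec4f* was the 1 Kupffer marker with a change that differed by diet, -0.57 ± 0.35 in MCD and 1.30 ± 0.35 (adjusted p = 0.014) in C (adjusted p of the difference = 0.0387). Of 20 markers of recruited and lipid-associated macrophages, 2 were higher and 1 was lower (6.15% and 3.18% of all genes were). *Lpl* (lipoprotein lipase, 2.21 ± 0.37 (SE, adjusted p = 0.000355)) and *Fabp5* (a fatty acid-binding protein, 1.19 ± 0.38 (SE, adjusted p = 0.0435)) were higher and *Lgals1* (galectin 1, -1.17 ± 0.35 (SE, adjusted p = 0.0339)) was lower. In C 11 were higher (6.03% of all genes were), and 6 without C after PH replicate 1. The call of *Lgals1* was lost under 11 of 19 alternatives (adjusted p up to 0.33). *Trem2*, a lipid receptor of these macrophages, had levels of 2.82, 2.48, 2.28 and 2.89 before PH and 2.18, 2.20, 0.53 and 1.19 after PH. The difference in MCD was -1.09 ± 0.75 (SE, adjusted p = 0.4), and it was 4.02 below that in C (adjusted p = 0.0372). *Clec7a*, the receptor dectin 1, changed by 0.07 ± 0.63 in MCD, 3.19 below the change in C (adjusted p = 0.0491).

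Of 8 MHC class II genes 0 were called in MCD by limma, also at an unadjusted p under 0.05 (median -0.34). In C 6 of 8 were higher (median 1.59), against 6.03% of all genes, and 2 of them without C after PH replicate 1. The sign of the MCD median relative to all genes turned under quantile normalization and in the authors' values. Of 21 interferon-stimulated genes 1 was lower (3.18% of all genes were), *Isg15*, a ubiquitin-like modifier (-1.18 ± 0.37 (SE, adjusted p = 0.0422)), and that call was lost under 14 of 19 alternatives. The list had a median of -0.72 in MCD and 1.12 in C, where 5 were higher (1 without C after PH replicate 1), against 6.03% of all genes. For 5 genes (*Ifit2*, *Ifit3*, *Oasl1*, *Mx1* and *Rsad2*) the change was smaller in MCD, against 1.06% of all genes. *Mx1*, an antiviral GTPase, had levels of -1.83, -1.39, -1.16 and -1.10 before PH and -1.89, -2.24, -2.89 and -2.63 after PH. It differed by -1.04 ± 0.38 (SE, adjusted p = 0.0805) in MCD, against 2.79 ± 0.38 (adjusted p = 3.88e-05) in C. Of 24 chemokines and receptors *Cxcl13* alone was called, and among 19 cytokines and Toll-like receptors the interleukin 1 receptor *Il1r1* alone (1.80 ± 0.40 (SE, adjusted p = 0.00443)), against 9.33% of all genes. Among 18 T and NK cell markers tested (6.15% of all genes were higher and 3.18% lower) *Cd4* (1.09 ± 0.32 (SE, adjusted p = 0.0313)), *Cd3e* (1.00 ± 0.26 (SE, adjusted p = 0.0158)) and *Nkg7* (0.75 ± 0.22 (SE, adjusted p = 0.0315)) were higher and *Cd3g* (-1.38 ± 0.38 (SE, adjusted p = 0.0198)) was lower. The estimates of 2 subunits of the same T cell receptor complex, *Cd3e* and *Cd3g*, thus had opposite signs. The call of *Cd3g* was lost under 4 of 19 alternatives (adjusted p up to 0.323), with estimates as small as -0.25. Its replicate 1 after PH (-4.12) lay below the others (-2.97 to -2.73). The call of *Cd4* was lost under 9 of 19 alternatives, with estimates down to 0.24. Of 12 B and plasma cell markers tested 1 was higher (6.15% of all genes were) and 0 were lower, with a median of 0.15. It was the complement receptor *Cr2* of B cells (1.51 ± 0.36 (SE, adjusted p = 0.00699)).

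Of 23 collagens and collagen-processing genes, 1 was higher and 1 was lower in MCD liver, against 6.15% and 3.18% of all genes. *Col4a1*, of the basement membrane, rose by 1.06 ± 0.31 (SE, adjusted p = 0.0289) and *Serpinh1*, the collagen chaperone, fell by 1.24 ± 0.36 (SE, adjusted p = 0.0274), with a median of -0.30, and each of these calls was lost under 8 of 19 alternatives. *Col3a1*, a fibrillar collagen, had levels of 2.32, 2.57, 2.71 and 2.66 before PH and 2.27, 1.82, 1.76 and 1.49 after PH. It differed by -0.73 ± 0.45 (SE, adjusted p = 0.341) in MCD and by 2.34 ± 0.45 (adjusted p = 0.00127) in C, and the MCD change was 3.07 below the C change (adjusted p = 0.012). *Col1a1* and *Col1a2* also had a smaller change in MCD than in C, by -3.21 ± 0.87 (adjusted p = 0.0422) and -2.46 ± 0.59 (adjusted p = 0.0222). Of 21 stellate cell and myofibroblast markers 3 were lower, against 3.18% of all genes, *Reln* (reelin, -1.24 ± 0.35 (SE, adjusted p = 0.0239)), *Tpm2* (a tropomyosin, -1.21 ± 0.37 (SE, adjusted p = 0.0339)) and *Lrat* (the enzyme that stores retinyl esters, -1.03 ± 0.31 (SE, adjusted p = 0.0354)), with a median of -0.62. The call of *Reln* was lost under 5 of 19 alternatives (adjusted p up to 0.367). Among 21 genes of TGF beta signalling 2 were lower (3.18% of all genes were). They were the TGF beta family targets *Id1* (-2.08 ± 0.60 (SE, adjusted p = 0.0263)) and *Id2* (-1.11 ± 0.34 (SE, adjusted p = 0.0389)), and the call of *Id1* was lost under 5 of 19 alternatives. Of the 21 other matrix proteins tested *Vcan* (versican) rose by 1.04 ± 0.28 (SE, adjusted p = 0.0171) and *Ccn1* fell by 1.72 ± 0.45 (SE, adjusted p = 0.0148), and among 12 proteases and inhibitors *Mmp14* rose by 1.08 ± 0.31 (SE, adjusted p = 0.0255) and *Timp3* fell by 0.89 ± 0.25 (SE, adjusted p = 0.0236). The calls of *Mmp14* and *Timp3* were lost under 6 and 5 of 19 alternatives. Of the 17 hepatic mRNAs that the study named, 16 were tested and 0 were called in MCD liver by limma (2 were lower at an unadjusted p under 0.05), against 9.33% of all genes. Among them were *Tnf* (0.05 ± 0.64), *Il1b* (0.03 ± 0.47), *Ccl2* (0.15 ± 0.85), *Adgre1* (1.10 ± 0.59), *Fgf21* (-0.75 ± 0.54) and *Acta2* (-0.59 ± 0.54). The study measured these mRNAs by quantitative PCR. It compared diets and treatments at each time, and describes after against before PH only for its drug-treated groups. The present contrast is therefore not one that it reported.

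**Figure D5:**
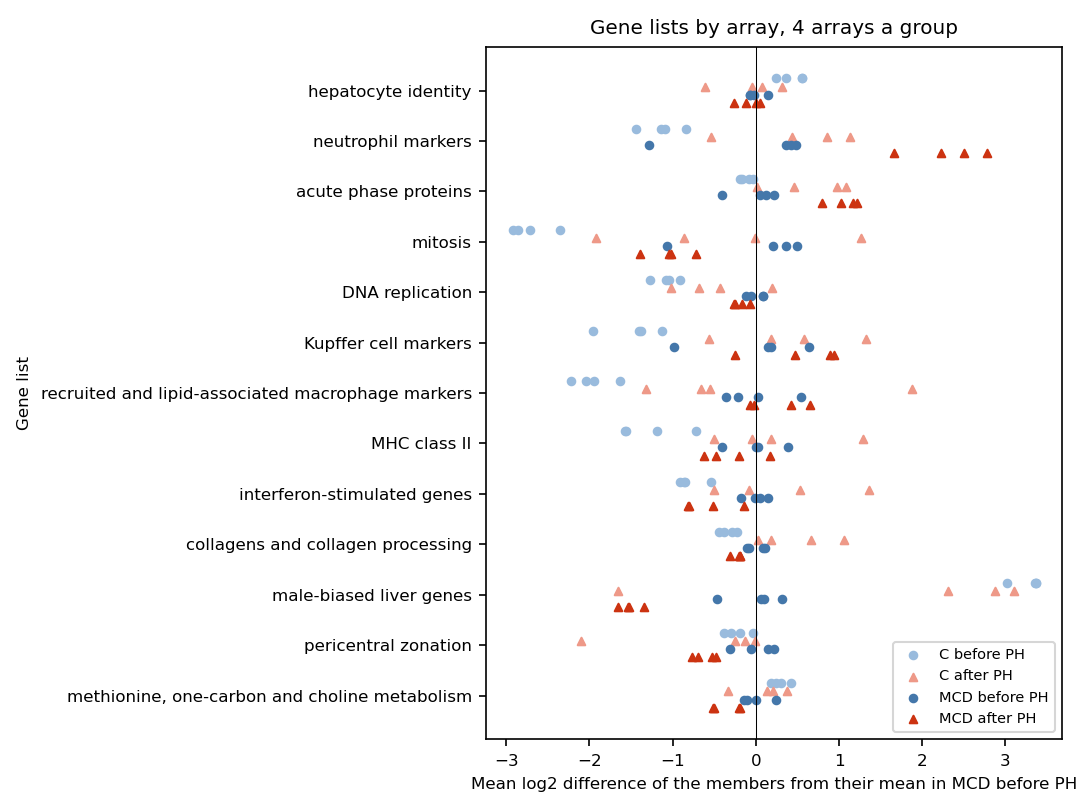
Mean log2 difference of the tested members of 13 gene lists from their mean in MCD before PH, with a point for each of 4 arrays in C before PH, C after PH, MCD before PH and MCD after PH. Within the neutrophil list the points of MCD after PH (1.66 to 2.78) lie above those of the other 3 groups, within the mitosis list the points of C before PH (-2.92 to -2.35) lie lowest, and the male-biased genes of MCD after PH (-1.65 to -1.34) lie below MCD before PH; in 3 of the lists (hepatocyte identity, MHC class II and recruited macrophages) the sign of the MCD median relative to all genes turned under at least 1 alternative.

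Most genes of hepatocyte function were not called. Of 12 male-biased genes 3 were lower, against 3.18% of all genes tested (*Hsd3b5*, *Slco1a1* and the complement gene *C6*, which fell by 1.36 ± 0.33 (SE, adjusted p = 0.00833)), with a median of -1.30; before PH 10 of the 12 were already lower in MCD than in C. In C the median of the list was -1.24, and it was -0.49 without C after PH replicate 1. The mean of the list lay at -1.66 on C after PH replicate 1 and at 2.31 or above on the other 3. Of 10 female-biased genes tested 1 was lower (3.18% of all genes were), *Cyp2b13* (-1.87 ± 0.33 (SE, adjusted p = 0.000701)), and 0 were higher. The median of that list was 0.12, and 5 of the 10 estimates were above 0. Of 11 pericentral genes, which the hepatocytes next to the central vein express, 3 were lower (3.18% of all genes were). They were *Glul* (glutamine synthetase, -1.40 ± 0.40 (SE, adjusted p = 0.0235)), *Oat* (ornithine aminotransferase, -1.49 ± 0.39 (SE, adjusted p = 0.0156)) and *Rhbg* (an ammonium transporter, -1.22 ± 0.38 (SE, adjusted p = 0.0409)). *Glul* had levels of 6.55, 6.25, 6.25 and 6.59 before PH and 5.20, 5.08, 4.87 and 4.90 after PH. All values after PH were below those before PH. *Glul* and *Oat* were not called after normexp correction with quantile normalization (adjusted p = 0.0663 and 0.0512).

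Of 27 genes of methionine, one-carbon and choline metabolism, the pathway that the diet limits, 4 were lower (3.18% of all genes were), with a median of -0.41. They were *Bhmt*, which remethylates homocysteine with betaine, *Dmgdh*, which oxidizes dimethylglycine, *Cth*, which makes cysteine, and *Gnmt*, the glycine methyltransferase. *Bhmt* had levels of 9.04, 9.13, 9.42 and 9.29 before PH and 7.03, 7.94, 8.71 and 8.67 after PH. The 4 values after PH lay below all values before PH, replicate 1 after PH lowest, and it fell by 1.13 ± 0.31 (SE, adjusted p = 0.0189). Without that array the difference was -0.78 (adjusted p = 0.104). *Dmgdh* fell by 1.01 ± 0.24 (SE, adjusted p = 0.0075), *Cth* by 1.01 ± 0.29 (SE, adjusted p = 0.0269) and *Gnmt* by 0.83 ± 0.26 (SE, adjusted p = 0.0371).

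Iron genes split. *Hamp2*, a hepcidin gene, had levels of 4.57, 6.08, 5.43 and 5.92 before PH and 2.37, 2.05, 3.25 and 3.17 after PH. The groups were separate, and it fell by 2.79 ± 0.46 (SE, adjusted p = 0.000328). *Hamp*, the main iron hormone hepcidin, whose sequence is close to that of *Hamp2*, had levels of 6.54, 8.19, 5.82 and 7.69 before PH and 6.30, 6.78, 4.12 and 3.74 after PH; it overlapped and differed by -1.83 ± 0.64 (SE, adjusted p = 0.0715). *Bmp6*, the endothelial ligand that controls hepcidin, fell by 1.12 ± 0.34 (SE, adjusted p = 0.0354), and ceruloplasmin rose as given above. Among 30 complement and coagulation genes tested 3 were lower and 1 was higher, against 3.18% and 6.15% of all genes. The lower were *Mbl2* (mannose-binding lectin, -1.88 ± 0.44 (SE, adjusted p = 0.00647)), *C6* and *F13b* (-0.77 ± 0.24 (SE, adjusted p = 0.0422)). The fatty acid transporter *Cd36* rose by 1.49 ± 0.40 (SE, adjusted p = 0.0166). It was the 1 called of 22 genes of PPAR alpha and fatty acid oxidation (median 0.23), where 6.15% of all genes were higher. The hepatic lipase *Lipc* fell by 1.29 ± 0.36 (SE, adjusted p = 0.0201), the 1 called of 15 genes of apolipoproteins and lipoprotein export (median 0.15). The lipogenic *Thrsp* fell by 1.42 ± 0.45 (SE, adjusted p = 0.0438), the 1 called of 20 lipogenesis genes (median -0.42). Over all genes 3.18% were lower. The call of *Thrsp* was lost under 11 of 19 alternatives and that of *Lipc* under 5. Of 23 genes of ER stress and the integrated stress response 2 were lower, against 3.18% of all genes, with a median of -0.17. They were *Ddit3* (the transcription factor CHOP) at -1.59 ± 0.38 (SE, adjusted p = 0.00713) and *Ppp1r15a* at -1.08 ± 0.26 (SE, adjusted p = 0.00732). Of 26 NRF2 target and glutathione genes tested 1 was higher (6.15% of all genes were) and 0 were lower, with a median of -0.12. It was the metal-binding *Mt1* (1.75 ± 0.51 (SE, adjusted p = 0.0274)), a call lost under 6 of 19 alternatives.

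Some other lists held 1 or 2 called genes. Over all genes 6.15% were higher and 3.18% lower. *Igfbp5*, a binding protein of insulin-like growth factors, rose by 2.26 ± 0.50 (SE, adjusted p = 0.00426). It was the 1 called of 15 genes of the growth hormone and IGF axis, whose median was -0.39. *Gpc3* (glypican 3) rose by 2.48 ± 0.54 (SE, adjusted p = 0.00395) and was the 1 called of 5 fetal liver genes, whose median was -0.40. Of 12 biliary and progenitor markers tested *Prom1* rose by 2.59 ± 0.77 (SE, adjusted p = 0.0322) and *Epcam* fell by 2.28 ± 0.62 (SE, adjusted p = 0.0179). The call of *Prom1* was lost under 9 of 19 alternatives and that of *Epcam* under 4. *Msln*, of the mesothelium that covers the liver, had levels of -2.54, -1.45, -2.42 and -5.72 before PH and -0.36, -0.07, 0.37 and 0.97 after PH. It rose by 3.26 ± 0.86 (SE, adjusted p = 0.015), and 4 of the 5 mesothelial genes tested did not pass. *Slc4a1*, the anion exchanger of red cells, rose by 1.64 ± 0.33 (SE, adjusted p = 0.00216), and the other 6 erythroid genes tested were not called. *Cela1*, an elastase, rose by 1.83 ± 0.37 (SE, adjusted p = 0.002) in MCD and changed by -1.39 ± 0.37 (adjusted p = 0.0121) in C (difference 3.23, adjusted p = 0.00249), and the other 3 exocrine pancreas genes tested were not called in MCD.

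Over all genes the change in MCD liver and the change in C liver shared 252 rises, 19.2% of the 1309 in MCD and 19.6% of the 1283 in C, and 197 falls, 29.1% of the 678 in MCD and 11.8% of the 1665 in C (7.82% of all genes). The 2 comparisons share no array but the arrays after PH share a scanner and a scan day. The change differed by diet for 592 genes (2.78%), 367 with a higher and 225 with a lower change in MCD (1.72% and 1.06%). The direction of these calls depended on the centring, with 66 higher and 266 lower of 332 after median centring. Without C after PH replicate 1 the difference by diet was no longer called for *Clec4f*, *Trem2*, *Clec7a*, *Cdt1*, *Gins2*, *Met*, *Fga*, *Cxcl13*, *Col1a1*, *Ifit3*, *Oasl1* and *Rsad2* (adjusted p from 0.0686 to 0.112), and it was still called for *Col3a1*, *Col1a2*, *Mx1*, *Ifit2*, *Igdcc4* and *Cela1* (adjusted p from 0.00143 to 0.0477). Most of the lost calls did not rest on that array alone. Without MCD before PH replicate 2 they were lost too, except for *Clec4f* and *Cdt1* (adjusted p of those lost from 0.0525 to 0.0967). Without MCD before PH replicate 4 they were lost except for *Oasl1* (from 0.0592 to 0.102). The genes still called kept their calls without either of these arrays.

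Between M+Fc-GLP-1 and untreated MCD liver the change differed for 386 genes (1.81%), 121 higher (0.568%) and 265 lower (1.24%) in treated mice, and for 141 higher and 75 lower after median centring. The treated arrays after PH were read on the first scanner. *Tmc5* changed by -0.45 ± 0.73 in treated mice, *Hamp2* by -0.29 ± 0.46, *Lgals1* by 1.21 ± 0.35 and *Gm8995* by 0.60 ± 0.52, and each differed from its change in untreated MCD mice (adjusted p = 0.0162, 0.0422, 0.014 and 0.0165). The rises whose difference between treated and untreated mice did not pass the test included those of *Marco* (2.59 ± 0.55 in treated mice), *Lpl* (2.99 ± 0.37) and *S100a8* (3.16 ± 0.67), with differences of -0.02 ± 0.78, 0.77 ± 0.52 and -0.58 ± 0.95.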

How the data were processed

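Gene expression was measured in 32 mouse livers, 1 array each in 8 groups of 4, and the groups came from the sample labels. Per the labels and file headers, the authors labelled total RNA with Cy3, hybridized it to SurePrint G3 mouse arrays and scanned them, and Agilent Feature Extraction gave a background-subtracted, detrended intensity per spot. The deposited table of log2 values was normalized by the authors with limma, as their methods state. Its column medians ran from 6.48 to 6.49 on the 16 arrays before PH and from 6.79 to 6.80 on the 16 after PH, so that it was scaled apart for each time, and it served as an alternative.

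From the deposited intensity, control spots were left out, spots with outlier flags were set missing, spots of a probe were averaged, and each array's 75th percentile was subtracted from its log2 values. Those with fewer than 3 unflagged arrays in a group (2 of 55681) were dropped, 424 kept probes lacked a value on at least 1 array, and those arrays were left out of the fit of such a probe. A probe entered the fit if the 4 arrays of some group all had it well above background, and each gene was read from its brightest such probe. Gene names came from the files, and 27650 probes were matched to RefSeq through accessions. The fit was made with limma 3.58.1 (lmFit, eBayes; R 4.3.3) over all 32 arrays without covariates, with Benjamini-Hochberg adjustment over all 21289 genes at 0.05. Contrasts were MCD after minus before PH, the same for C and M+Fc-GLP-1, differences between these changes, and MCD minus C at each time. The p-values treat the 4 livers of a group as separate animals. The labels shown number the samples of a group without naming animals, and the study gives 4 mice per group for its array results. Depth has no equal in array data, and the 4 arrays per group limit the precision (median SE 0.33 on the log2 scale). In simulated data with 200 changed genes of 21289, the fit called 28% of changes of 1 and 88% of changes of 2 on the log2 scale, with 1 false call. The simulated noise was independent between genes and arrays and held no slide or scanner difference. Fewer genes were changed in it than the 1987 called here. These figures therefore do not give the share of false calls or of missed genes in the MCD comparison.

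The genes named were the 10 largest rises and falls among called genes with a symbol whose values did not overlap, the mRNAs that the study named, and the called member with the largest rise and the largest fall of each of 54 gene lists, with other members as examples. The comparison and the lists were chosen with earlier results of these data known. Arrays before and after PH may share mice, which the fit leaves out, and replicate numbers did not pair the samples (correlations of same-numbered deviations from -0.02 to 0.02). Alternatives were normexp (offset 50) with quantile normalization, median centring, the percentile over bright probes, the authors' values, other probe filters, the mean over probes, only the groups compared, array weights, a replicate block, and each array left out. Promoters were RefSeq windows of GRCm38.p6, and genes were placed by RefSeq's annotation of that build. Some genes that the rule names are not reported here.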

Additional observations from a re-analysis of the deposited data

Results flagged for a closer look

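Among 166 groups of 4 arrays examined (the genes named, MCD before and MCD after PH), 11 had 1 array apart from the other 3 by Dixon's ratio of gap to range, about the number that chance gives at 1 in 20. Before PH it was replicate 2 for *Chil3* (ratio 0.957), *Isg15* (0.924), *Krt23* (0.83) and *Fcgr2b* (0.829), and replicate 1 for *Reln* (0.901). After PH it was replicate 1 for *Serpinh1* (0.919), *Fap* (0.873) and *Cd3g* (0.834), replicate 2 for *Dpp6* (0.911), replicate 3 for *Hsd3b5* (0.964), whose 4 values span less than 0.34 on the log2 scale, and replicate 4 for *Marco* (0.847).

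The change after PH differed by diet (limma, adjusted p under 0.05) for 10 of the genes named. It was larger in MCD than in C by 4.83 for *Igdcc4*, 3.58 for *Cxcl13*, 3.23 for *Cela1*, 2.27 for *Cd4* and 1.40 for *Vcan*. It was smaller in MCD, with differences of -4.57 for *Scube3*, -4.04 for *Kif20a*, -3.21 for *Col1a1*, -1.98 for *Oat* and -1.74 for *N6amt1*. The differences of *Cd4*, *Vcan*, *Scube3*, *Kif20a*, *Oat* and *N6amt1* were not examined 1 by 1 without C after PH replicate 1. Without it, those of *Cxcl13* and *Col1a1* were lost, as given above.

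The change differed between treated and untreated MCD mice for 5 of the genes named, with M+Fc-GLP-1 minus MCD at 3.39 for *Gm8995*, 3.29 for *N6amt1*, 2.50 for *Hamp2*, 2.38 for *Lgals1* and -4.80 for *Tmc5*. The treated arrays after PH were read on another scanner than the untreated ones, and its part in these differences was not tested.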

How the results depend on the processing

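The count of genes that differed between MCD liver after and before PH was 1259 after normexp with quantile normalization, 8744 in the authors' values (median of all genes 0.53, and 0.14 without the filter on dim probes, against -0.03), 3439 with array weights and 1039 among features with a gene symbol only, an alternative chosen after the data were seen; under the other settings it stayed within 1.5 times of 1987, and with 1 array left out it lay between 1325 and 1580. The count that differed by diet (592) was 332 after median centring, 327 without the filter, 1136 with array weights and 266 with the replicate block, and lay between 263 (without C after PH replicate 4) and 832 (without C after PH replicate 3) with 1 array left out. The count that differed by treatment (386) was 216, 1996, 786 and 200 under the same 4 settings and 153 among features with a symbol, and lay between 154 and 577 with 1 array left out. The replicate block gave 1661 genes in the MCD comparison. The 3 counts of list members under the alternatives and those of other lists without single arrays that stood apart were also added after the data were seen: mitosis genes with a smaller change in MCD were 8 in the authors' values, up to 19 (array weights) under the other settings and 9 to 23 with 1 array left out, neutrophil markers higher were 10 to 16 (the authors' values) and 6 (without MCD before PH replicate 2) to 11, and acute phase genes higher were 8 to 15 (the authors' values) and 7 to 10.

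Of the 67 called genes named, 25 were called under every alternative, and 42 lost the call under at least 1, 40 of them under a setting other than leaving out an array. The sign turned only for genes that were not called. In the authors' values these were *Col1a1* (0.21), *Acta2* (0.13), *Mmp2* (0.11), *Ifng* (0.075), *Des* (0.075) and *Fap* (0.015), all below the 0.53 of all genes. Estimates near 0 also turned. *Tnf* was -0.23 with array weights, -0.043 after median centring, -0.37 and -0.07 without MCD after PH replicates 1 and 2, and -0.06 and -0.26 without MCD before PH replicates 2 and 3, where its highest value with 1 array left out was 0.32 (without MCD after PH replicate 4). *Il1b* was -0.10 with array weights, -0.062 after median centring, -0.013 after quantile normalization, and -0.20 without MCD after PH replicate 1 or MCD before PH replicate 2. *Ccl2* was -0.23 with array weights, -0.25 and -0.20 without MCD after PH replicates 1 and 2, and -0.13 without MCD before PH replicate 3, and its highest value with 1 array left out was 0.52 (without MCD after PH replicate 4). *Dpp4* was -0.34 and *Gzmb* -0.040 without MCD before PH replicate 2, and their highest values with 1 array left out were 0.58 and 0.38. Relative to the median of all genes, the list medians that turned past their spread were those of iron genes (-0.032 without the filter, and from -0.017 without MCD before PH replicate 2 to 0.22 without replicate 3), retinoid genes (-0.059 without the filter, -0.034 in the authors' values) and T and NK cell genes (from -0.0091 without MCD before PH replicate 2 to 0.34 without MCD after PH replicate 4). Probes not well above background give only bounds, and time, slide, scanner, scan day and the longer diet cannot be told apart in MCD liver.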
